A study of Mus musculus with 5 samples.

Results

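The 9 genes described here, Prrx1, Prrx2, Twist1, Twist2, Alx1, Alx4, Shox2, Hand2 and Snai1, encode transcription factors of embryonic mesenchyme. They were taken by symbol from the authors' deposited table, where each has a row of its own, and make up 9 of its 22653 single gene symbols. All 9 reached the minimum used for counting, a mean of 1 FPKM (fragments scaled to transcript length and library total) over the genotypes, as did 11674 single gene symbols in all. RNA came from forelimbs taken whole at E11.5, at 47 to 48 somites, from embryos of mixed C57BL/6 and Swiss Webster strain. There were 2 Prmt5cKO samples, of genotype Prx1Cre+/-;Prmt5c/c, and 3 samples labelled control, whose alleles the labels do not give. The submitters call the samples biological replicates. Prx1Cre is a transgene in which a regulatory element of Prrx1 itself drives the recombinase in limb bud mesenchyme and not in the ectoderm. Prmt5 encodes an arginine methyltransferase, and the design asks how forelimb transcripts differ when the mesenchyme loses it. The authors gave 1 FPKM value per genotype, so no level below carries a spread over samples, the depth of each sample is unknown, and only the authors' q-value stands as a test.

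Limb bud mesenchyme is the loose tissue beneath the ectoderm from which cartilage, tendon and dermis of the limb arise. Paired-type homeodomain proteins such as Prrx and Alx bind sites with the core TAAT, often as dimers, and Prrx1 and Prrx2 act in part redundantly in the mouse skeleton. Twist and Hand proteins belong to the basic helix-loop-helix (bHLH) class, which binds E-boxes (CANNTG) as dimers with each other or with E proteins, while Id proteins take up E proteins into dimers that do not bind DNA. Snai1 is a zinc finger repressor known for silencing the epithelial cadherin gene Cdh1 where epithelial cells turn mesenchymal.

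Of the 9 genes Twist2 and Alx1 fell in Prmt5cKO forelimbs, none rose, 6 did not pass and Prrx1 was not tested by the authors. Twist2 stood at 29.2 FPKM in Prmt5cKO and 38.1 FPKM in control forelimbs, and Alx1 at 1.16 FPKM in Prmt5cKO and 2.55 FPKM in control forelimbs. A gene was counted as changed where the authors' q-value was under 0.05. The 2 falls are 25.0% of the 8 tested members, where 19.3% of the 10617 tested genes at the same minimum fell, 4.83% rose and 24.1% did either. The members' share is thus near that of all genes. Prrx1 and Twist2 lie on chromosome 1, Prrx2, Alx4 and Snai1 on chromosome 2, Shox2 on chromosome 3, Hand2 on chromosome 8, Alx1 on chromosome 10 and Twist1 on chromosome 12. The 9 levels together came to 456 FPKM in Prmt5cKO and 471 FPKM in control forelimbs. In 5 of the 9 the log2 ratio of Prmt5cKO to control, computed from the FPKM values, lay within 0.2 of 0, as it did for 49.8% of the tested genes.

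The whole table leaned downwards, with a median log2 ratio of -0.13 over the tested genes, and 69.6% of them had a ratio below 1. Set against that median, Prrx2, Twist1, Alx4, Shox2, Hand2 and Snai1 lay above it and Prrx1, Twist2 and Alx1 below it. With 1 FPKM added to each value the members' median log2 ratio was -0.05, against -0.12 for all genes at the minimum. Rescaling by the median ratio turned the sign of the small log2 ratios of Twist1, Alx4 and Hand2, and quantile normalization also that of Alx4, so no direction is given for these 3 genes.

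**Figure D1:**
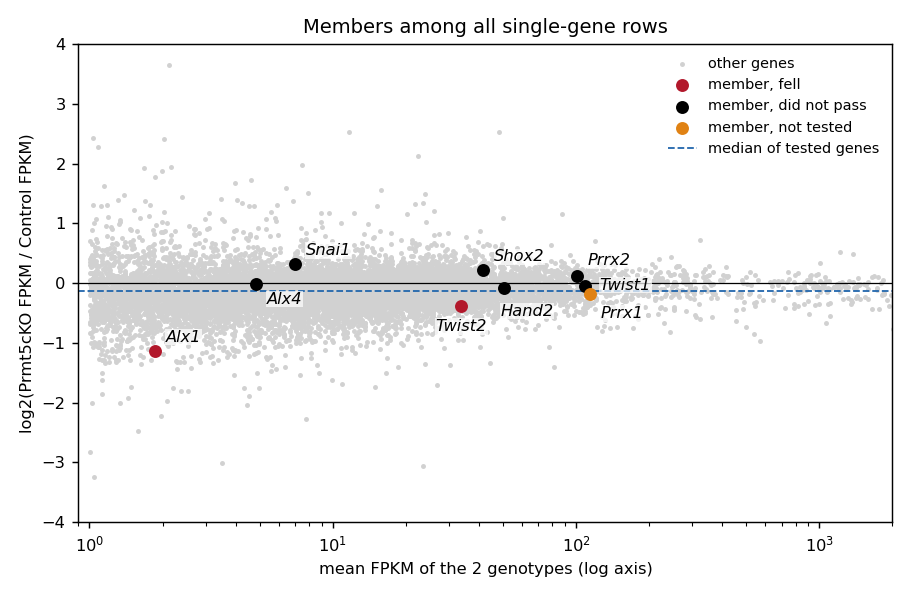
Each point is a gene with a row of its own and a mean of at least 1 FPKM; the horizontal axis gives the mean FPKM over the genotypes on a log scale and the vertical axis the log2 ratio of Prmt5cKO to Control FPKM, with genes beyond the axes not drawn. Alx1 lies at -1.13 near the low end of expression and Twist2 at -0.38, while the other members sit between -0.19 and 0.32, on either side of the dashed line at -0.13 that marks the median of the tested genes.

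Values that bear on every comparison are given once here. Prmt5 was at 12.5 FPKM in Prmt5cKO and 40.9 FPKM in control forelimbs. Tbx5, the T-box factor of the forelimb, was at 19.9 FPKM in Prmt5cKO and 23.0 FPKM in control forelimbs, while Pitx1, a hindlimb factor, was at 0.268 FPKM in Prmt5cKO and 0.143 FPKM in control forelimbs. Tbx4, the other gene of the hindlimb list, was at 2.95 FPKM in Prmt5cKO and 3.81 FPKM in control forelimbs and did not pass (authors' deposited table: log2 fold change -0.37, q = 0.157). The mesenchymal cadherin gene Cdh11 was at 144 FPKM in Prmt5cKO and 177 FPKM in control forelimbs. The groups also differed in embryo sex: Xist was at 0.392 FPKM in Prmt5cKO and 87.3 FPKM in control forelimbs, and the Y-linked Ddx3y at 21.8 FPKM in Prmt5cKO and 0.0840 FPKM in control forelimbs, so genotype and sex cannot be told apart for any member. Macrophage markers moved as well, with 11 of 14 tested risen and a summed level of 80.9 FPKM in Prmt5cKO and 43.2 FPKM in control forelimbs. Over all tested genes 4.83% rose and 19.3% fell. The other 5 marker lists had lower sums in Prmt5cKO than in control forelimbs, in a table that leaned downwards as a whole. With 1 FPKM added, list medians of the log2 ratio were set against that of all genes at the minimum. The difference was 0.11 for ectoderm and ridge, 0.03 for red cells and -0.03 for endothelium. It was -0.10 for muscle and -0.19 for nerve and Schwann cells. The ectoderm and ridge list summed to 228 FPKM in Prmt5cKO and 234 FPKM in control forelimbs (3 of 14 rose, 1 fell), and the muscle list to 123 FPKM in Prmt5cKO and 151 FPKM in control forelimbs (3 of 8 fell). The muscle marker Pax3 lay below the minimum and outside this count, and was the higher in Prmt5cKO. It was at 1.14 FPKM in Prmt5cKO and 0.525 FPKM in control forelimbs (authors' deposited table: log2 fold change 1.11, q = 0.00187). For endothelium the sums were 84.6 FPKM in Prmt5cKO and 94.4 FPKM in control forelimbs (3 of 8 fell). For red cells they were 73.5 FPKM in Prmt5cKO and 90.5 FPKM in control forelimbs (2 of 9 fell), and for nerve and Schwann cells 16.7 FPKM in Prmt5cKO and 21.2 FPKM in control forelimbs (2 of 4 fell). No marker of these lists was at 0 in either genotype, and their part in the members' values was not tested.

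Prrx1 and Prrx2 were among the most abundant transcription factors described here. Prrx1 was at 107 FPKM in Prmt5cKO and 122 FPKM in control forelimbs, rank 518 of 11674 genes by mean level. Its row in the authors' deposited table lists a fold of 0 with a q of 1, here taken to mean that no test was made, as for 96 of 615 genes with a mean of at least 100 FPKM. From the FPKM values its log2 ratio was -0.19. Prrx2 was at 105 FPKM in Prmt5cKO and 96.7 FPKM in control forelimbs, and did not pass (authors' deposited table: log2 fold change 0.12, q = 0.545). The level of Prrx1 was therefore 1.02 times that of Prrx2 in Prmt5cKO and 1.26 times in control forelimbs, and the summed level of the pair was 212 FPKM in Prmt5cKO and 219 FPKM in control forelimbs. The tissue is bulk, so fewer cells of a type and less RNA per cell cannot be told apart for any gene.

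The promoters of the pair are shown because the paralogs stood at like levels, while their windows differ in composition. Each runs from 250 bases before to 50 after the RefSeq start on GRCm38.p6, 5′ to 3′ on the gene's own strand, with the homeodomain core TAAT or its complement ATTA in capitals. The Prrx1 window, chr1:163313601-163313900 on the minus strand, has a GC content of 47.7% and 4 such matches, counting the overlapping TAAT and ATTA of 1 run separately. The Prrx2 window, chr2:30845117-30845416 on the plus strand, has a GC content of 70.3% and no match. In GENCODE M21 Prrx2 has 4 transcripts and begins before this window, at base 30834972. Which start these forelimbs used was not tested. Of 32851 RefSeq promoter windows of this length, 58.0% hold at least 1 match, with a mean of 1.41 matches per window, and a match is a description and not a binding site.
Prrx1: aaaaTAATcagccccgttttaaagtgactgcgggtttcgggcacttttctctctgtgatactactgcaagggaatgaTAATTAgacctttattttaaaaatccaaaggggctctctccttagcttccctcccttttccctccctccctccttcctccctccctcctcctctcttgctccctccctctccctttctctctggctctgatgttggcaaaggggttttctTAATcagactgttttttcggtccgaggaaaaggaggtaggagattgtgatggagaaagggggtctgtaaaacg
Prrx2: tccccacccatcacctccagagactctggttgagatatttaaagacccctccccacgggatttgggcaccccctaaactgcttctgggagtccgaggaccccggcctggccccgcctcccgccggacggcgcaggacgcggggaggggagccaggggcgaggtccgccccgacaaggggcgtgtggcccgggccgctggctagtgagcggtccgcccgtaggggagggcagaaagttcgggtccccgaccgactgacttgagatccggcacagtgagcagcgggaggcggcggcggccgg

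Alx genes were far lower than Prrx genes. Alx1, on the minus strand of chromosome 10 (GRCm38, mm10; 102998707 to 103030215) and known in the mouse for its part in mesenchyme of the head, fell to 1.16 FPKM in Prmt5cKO, against 2.55 FPKM in control forelimbs (authors' deposited table: log2 fold change -1.13, q = 0.0221). This is 45.7% of the control level, and 0.961% of the tested genes had a lower log2 ratio. Its mean of 1.86 FPKM lies just above the minimum, at percentile 8.99 of levels. Alx4, whose loss in the mouse gives extra anterior digits with Shh expressed on the anterior side, was at 4.82 FPKM in Prmt5cKO and 4.87 FPKM in control forelimbs and did not pass (authors' deposited table: log2 fold change -0.01, q = 0.973). Alx4 exceeded Alx1 4.14-fold in Prmt5cKO and 1.91-fold in control forelimbs. In GENCODE M21, 243 of the 5756 exonic bases of Alx1 (4.22%) are also exonic in the non-coding gene Gm17028 on the same strand.

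Shox2, a homeodomain factor needed for the upper bone of the mouse limb, was at 44.7 FPKM in Prmt5cKO and 38.5 FPKM in control forelimbs. It missed the threshold (authors' deposited table: log2 fold change 0.21, q = 0.0653), and at a limit of 0.1 it would count as the only member that rose. Its log2 ratio was higher than that of 90.1% of the tested genes. Shox2 and Twist2 stood at 44.7 and 29.2 FPKM in Prmt5cKO forelimbs, against nearly equal levels of 38.5 and 38.1 FPKM in control forelimbs. The list of skeletal genes tied to Shox2 had 2 rises, 5 falls, 1 gene that did not pass and 1 not tested, where 4.83% of all tested genes rose and 19.3% fell. In that list Sox5, a partner of Sox9 in cartilage, was at 7.52 FPKM in Prmt5cKO and 12.4 FPKM in control forelimbs (authors' deposited table: log2 fold change -0.72, q given as 0).

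**Figure D2:**
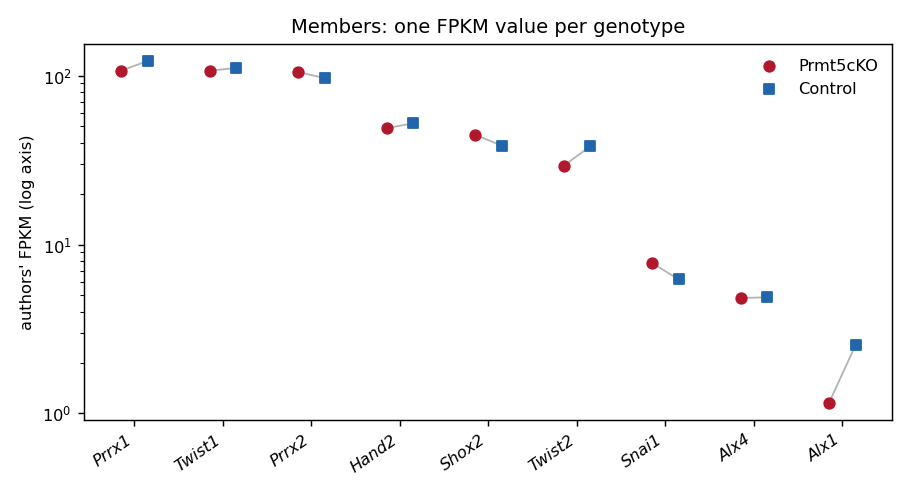
Dots give the authors' single FPKM value per genotype on a log axis, with Prmt5cKO (round, red) left of Control (square, blue), and genes ordered by their control level. Prrx1, Twist1 and Prrx2 lie near 100 in both genotypes, Hand2, Shox2 and Twist2 between 29.2 and 52.1, and Snai1, Alx4 and Alx1 below 8; the widest gap is that of Alx1.

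The Twist paralogs lay on different sides of the threshold. Twist1, which limb buds need for outgrowth in the mouse, was at 107 FPKM in Prmt5cKO and 111 FPKM in control forelimbs and did not pass (authors' deposited table: log2 fold change -0.05, q = 0.835). Twist2, also known as Dermo1 for its expression in dermis, lies on the plus strand of chromosome 1 (GRCm38, mm10; 91801461 to 91848028). It fell to 29.2 FPKM in Prmt5cKO, against 38.1 FPKM in control forelimbs (authors' deposited table: log2 fold change -0.38, q = 0.00267). That is 76.7% of the control level, and 19.1% of the tested genes had a lower log2 ratio. Whether the paralogs differ from each other in their response was not tested, as the table holds no values per sample. Twist2 made up 21.4% of the summed level of the pair in Prmt5cKO and 25.6% in control forelimbs. Of the exonic bases of Twist2 in GENCODE M21, 1477 of 3174 (46.5%) are also exonic in the antisense gene Gm29100. The sources used here do not say whether the libraries kept strand, so reads of the 2 strands cannot be told apart in its value.

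The promoters of this pair are printed to set the gene that fell beside its paralog that did not pass, in windows of the same kind as above and with CCAAT or its complement ATTGG in capitals. The Twist2 window is chr1:91801211-91801510 and the Twist1 window chr12:33957421-33957720, both on the plus strand. Their GC contents are 64.7% and 66.0%, and each holds CCAAT once, at position -63 from the start in Twist2 and -89 in Twist1. Of all windows 37.4% hold CCAAT or ATTGG. Neither window holds an E-box (CANNTG), which 72.3% of windows do, and this says only that these letters are not in these windows.
Twist2: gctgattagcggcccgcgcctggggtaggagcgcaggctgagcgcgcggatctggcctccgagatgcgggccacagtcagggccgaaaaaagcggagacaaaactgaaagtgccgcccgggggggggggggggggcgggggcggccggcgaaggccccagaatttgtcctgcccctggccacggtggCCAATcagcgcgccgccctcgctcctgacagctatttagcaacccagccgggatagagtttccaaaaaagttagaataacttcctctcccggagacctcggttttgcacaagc
Twist1: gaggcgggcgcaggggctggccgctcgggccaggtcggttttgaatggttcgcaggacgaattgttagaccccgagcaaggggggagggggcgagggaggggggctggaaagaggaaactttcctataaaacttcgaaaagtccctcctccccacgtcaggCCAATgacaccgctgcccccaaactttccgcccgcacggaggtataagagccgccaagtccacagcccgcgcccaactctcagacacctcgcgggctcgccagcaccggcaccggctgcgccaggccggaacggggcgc

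Hand2 marks the posterior limb mesenchyme, where it acts upstream of Shh. It was at 48.9 FPKM in Prmt5cKO and 52.1 FPKM in control forelimbs and did not pass (authors' deposited table: log2 fold change -0.09, q = 0.664). Its level was 0.457 times that of Twist1 in Prmt5cKO and 0.471 times in control forelimbs. Its paralog Hand1 has 2 rows in the table, both under 1 FPKM in both genotypes. An overlap with the antisense gene Hand2os1 covers 461 of the 2351 exonic bases of Hand2 (19.6%) in GENCODE M21, with the same limit on strand as for Twist2. In the list of posterior hedgehog genes tied to Hand2 and Alx4, 5 of 10 tested rose, 2 fell, 3 did not pass and 2 more were not tested. Among all tested genes 4.83% rose and 19.3% fell. Grem1, a secreted BMP antagonist, rose to 23.5 FPKM in Prmt5cKO, against 8.0 FPKM in control forelimbs (authors' deposited table: log2 fold change 1.56, q given as 0). Shh itself lay below the minimum and outside these counts, at 0.860 FPKM in Prmt5cKO and 0.172 FPKM in control forelimbs (authors' deposited table: log2 fold change 2.32, q = 6.60e-04). Tbx3, a T-box factor of the limb margins, rose to 7.89 FPKM in Prmt5cKO, against 6.38 FPKM in control forelimbs (authors' deposited table: log2 fold change 0.31, q = 3.08e-04). Gli2, a transcription factor of the hedgehog pathway, fell to 3.41 FPKM in Prmt5cKO, against 5.04 FPKM in control forelimbs (authors' deposited table: log2 fold change -0.56, q = 5.01e-07).

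Partners and inhibitors of the bHLH members spanned a wide range of levels. The E protein genes Tcf3, Tcf4 and Tcf12 were at 71.9, 44.9 and 84.9 FPKM in Prmt5cKO and at 79.9, 56.4 and 91.2 FPKM in control forelimbs. All 3 were listed like Prrx1 and taken as not tested. Together they came to 202 FPKM in Prmt5cKO and 228 FPKM in control forelimbs, and the 3 bHLH members to 185 FPKM in Prmt5cKO and 201 FPKM in control forelimbs. Of the 4 Id genes, Id4 fell to 3.28 FPKM in Prmt5cKO, against 6.67 FPKM in control forelimbs (authors' deposited table: log2 fold change -1.02, q = 2.50e-07). Id1, Id2 and Id3, at 155, 59.2 and 183 FPKM in Prmt5cKO and at 185, 65.8 and 212 FPKM in control forelimbs, did not pass. In the Twist and Hand class outside the members, 3 of 8 genes reached the minimum. Scx, the factor of tendon progenitors, fell to 22.3 FPKM in Prmt5cKO, against 43.3 FPKM in control forelimbs (authors' deposited table: log2 fold change -0.96, q = 2.17e-07), while Tcf15 and Msc did not pass. By comparison, 19.3% of all tested genes fell and 4.83% rose. Lists of so few genes cannot be set apart from these shares.

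**Figure D3:**
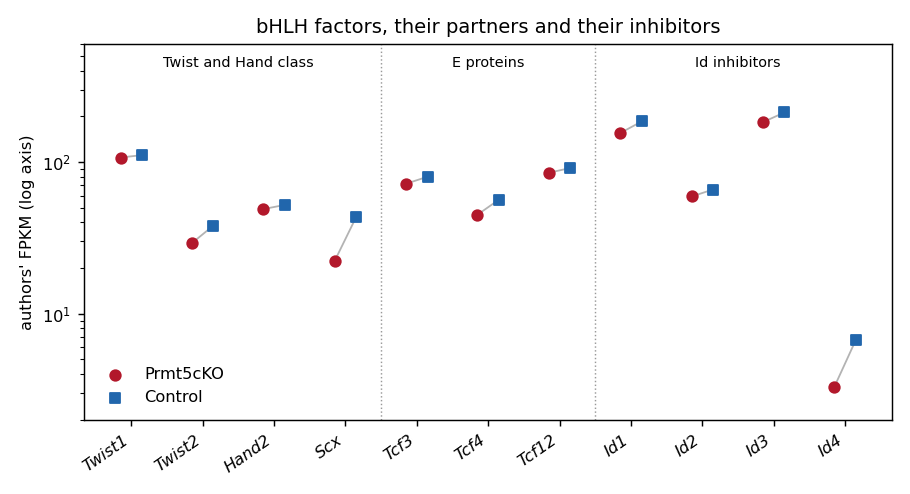
Dots give the authors' single FPKM value per genotype on a log axis for Twist1, Twist2, Hand2, Scx, E proteins and Id inhibitors, with Prmt5cKO (round, red) left of Control (square, blue). Scx (22.3 in Prmt5cKO and 43.3 in Control) and Id4 (3.28 and 6.67) show the widest gaps of the 11 genes drawn, wider than that of Twist2 (29.2 and 38.1).

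Snai1 was at 7.77 FPKM in Prmt5cKO and 6.21 FPKM in control forelimbs and did not pass (authors' deposited table: log2 fold change 0.32, q = 0.272), although 94.4% of the tested genes had a lower log2 ratio. Its paralog Snai2 was at 7.02 FPKM in Prmt5cKO and 7.16 FPKM in control forelimbs and did not pass (authors' deposited table: log2 fold change -0.03, q = 0.947), and Snai3 lay below the minimum. Zeb1, a zinc finger repressor with a like role, was at 13.5 FPKM in Prmt5cKO and 15.7 FPKM in control forelimbs and did not pass. The Snail target Cdh1 was at 6.23 FPKM in Prmt5cKO and 6.14 FPKM in control forelimbs (q = 0.942 in the authors' deposited table). Snail proteins bind the E-box CACCTG or its complement CAGGTG, and the Snai1 window, chr2:167537945-167538244 on the plus strand, is printed because it holds this element once, in capitals, at position -126 from the RefSeq start. Of all windows 20.2% hold it, and of the windows of 7 members searched only that of Snai1 did. The match is a description and not a binding site.
Snai1: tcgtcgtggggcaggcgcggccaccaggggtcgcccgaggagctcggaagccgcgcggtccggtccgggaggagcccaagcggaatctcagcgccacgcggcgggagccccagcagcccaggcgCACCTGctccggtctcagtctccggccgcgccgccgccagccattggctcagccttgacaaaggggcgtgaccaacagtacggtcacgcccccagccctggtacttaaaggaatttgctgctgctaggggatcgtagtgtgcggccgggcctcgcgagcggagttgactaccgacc

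Paralogs had little sequence in common over which reads might be assigned to the wrong copy. No window of 30 bases in a GENCODE M21 transcript of Prrx1, Twist1 or Alx4 was found in a transcript of Prrx2, Twist2 or Alx1, on either strand, and none of Snai1 or Hand2 in Snai2 or Hand1. For Prrx1, Prrx2, Twist1, Alx4 and Snai1 at most 0.923% of windows occurred in any other gene. For Shox2 the share was 3.78%, mostly from Rsrc1 on the opposite strand, with which it shares 153 exonic bases. The share was 46.0% for Twist2, 17.5% for Hand2 and 4.03% for Alx1, led by the overlapping genes Gm29100, Hand2os1 and Gm17028 in that order.

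By level and ratio together, each member was set beside the 187 other genes of the fixed lists, with the distance taken in log2(FPKM + 1) over the 2 genotypes, so that likeness rests on 2 values. Hoxd13 was nearest to Twist1 (distance 0.0437), Prrx1 (0.0942) and Prrx2 (0.237), at 107 FPKM in Prmt5cKO and 114 FPKM in control forelimbs. Tbx15 was nearest to Twist2 (0.155), Hoxd11 to Shox2 (0.105), Lhx9 to Hand2 (0.102), Bmp2 to Alx4 (0.127) and Irx5 to Alx1 (0.351). Tbx3 was nearest to Snai1 (0.0377), and the 2 had nearly the same levels in each genotype. They stood on different sides of the threshold, with q = 3.08e-04 for Tbx3 and q = 0.272 for Snai1 in the authors' deposited table.

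The members were then set beside other genes of the limb mesenchyme, and beside an FGF list that also holds ligands of the ectodermal ridge. For the counts that follow, 4.83% of all tested genes rose and 19.3% fell. In the list of mesenchymal structural and receptor genes 12 of 12 tested at the minimum fell and 1 was not tested, with a median log2 ratio of -0.47 after adding 1 FPKM, where the 9 members had -0.05 and all genes -0.12. Of its 15 genes 14 had a row of their own. Thy1 lay below the minimum and outside the count, at 0.570 FPKM in Prmt5cKO and 0.170 FPKM in control forelimbs (authors' deposited table: log2 fold change 1.75, q = 0.0786). Postn, a matrix protein of connective tissue, fell to 4.70 FPKM in Prmt5cKO, against 9.46 FPKM in control forelimbs (authors' deposited table: log2 fold change -1.01, q given as 0). Col3a1, a fibrillar collagen chain, fell to 111 FPKM in Prmt5cKO, against 184 FPKM in control forelimbs (authors' deposited table: log2 fold change -0.73, q = 9.54e-07). Among 17 tested other transcription factors of limb mesenchyme there were 2 rises, 5 falls and 10 genes that did not pass. The median over the 20 genes of that list at the minimum, of which 3 were not tested, was -0.10. Sall4, a zinc finger factor, rose to 2.53 FPKM in Prmt5cKO, against 1.40 FPKM in control forelimbs (authors' deposited table: log2 fold change 0.85). In the FGF list tied to Twist1 6 of 10 tested rose, none fell and 4 did not pass. Etv5, an FGF-induced transcription factor, rose to 27.8 FPKM in Prmt5cKO, against 17.6 FPKM in control forelimbs (authors' deposited table: log2 fold change 0.66, q = 1.20e-09). The receptor genes Fgfr2 and Fgfr3 of that list were not tested, at 19.4 and 5.76 FPKM in Prmt5cKO and at 28.5 and 10.2 FPKM in control forelimbs. The differences between these lists are descriptions, since 1 value per genotype allows no test of them.

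**Figure D4:**
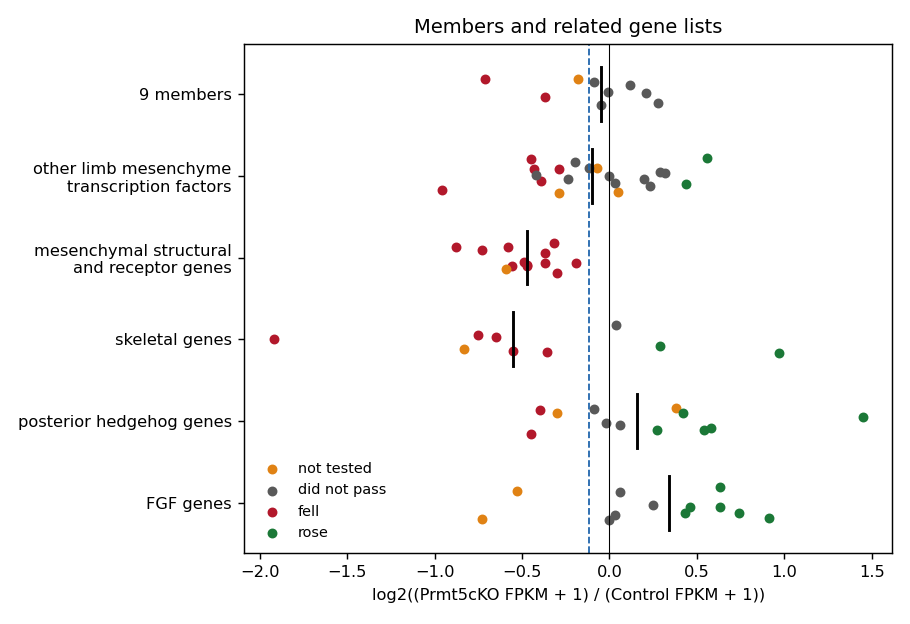
Each point is a gene at a mean of at least 1 FPKM, placed by log2((Prmt5cKO FPKM + 1) / (Control FPKM + 1)) and coloured by the authors' q-value; vertical bars are list medians and the dashed line is the median of all genes at -0.12. The members spread around 0 with a median of -0.05, the structural genes all lie below 0 with a median of -0.47, and the FGF genes have a median of 0.34.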

How the data were processed

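Total RNA from 2 Prmt5cKO and 3 control forelimb samples was isolated with TRIzol before Illumina library preparation, per the labels' protocols. Tools named by the submitters' processing notes are Cufflinks 2.1.1, Bowtie2 2.1.0 and TopHat2 2.0.10, and the build is mm10; their settings are not stated there. Each row of the deposited table holds, per the file headers, an FPKM value for each genotype, a q-value and a log2 fold change, Prmt5cKO relative to control; the sources used here do not say how replicates were combined or tested. For tested genes their log2 fold changes differed from the FPKM ratios by at most 1.3e-05. FPKM does not correct for composition.

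Members and gene lists were chosen with earlier results of these data known. The row with the highest mean stood for a repeated symbol. Rows with a fold of 0 or infinity and q = 1 were taken as not tested (1057 of 11674 genes at a mean of 1 FPKM). Calls used the authors' q under 0.05, and no p-value was computed. Named genes were all members, their paralogs, Prmt5, up to 4 passing genes per list with the smallest q, or the 2 highest where none passed, and the gene nearest to each member; others named (markers, Id and E protein genes, Cdh1, Tcf15 and Msc) complete a list or a check and were chosen after their values were seen. Some genes this rule names are not reported here. RefSeq promoter windows on GRCm38.p6 matched 7 of 9 members, all but Alx1 and Alx4. Coordinates and overlaps came from GENCODE M21 on mm10. The counting was tested on simulated data. Python 3.11, pandas 2.3.3 and numpy 2.4.6 were used.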

Additional observations from a re-analysis of the deposited data

How the results depend on the processing

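The counts over all genes kept within 1.5 times of 513 rises and 2049 falls at q limits of 0.01 and 0.1, with no minimum level and with a minimum of 5 FPKM. Among the members, 1 fell at a q under 0.01 (Twist2), 1 rose at a q under 0.1 (Shox2), and 1 fell with a minimum of 5 FPKM, which leaves out Alx1 and Alx4. Of the 10617 tested genes, 1439 fell at a q under 0.01 and 635 rose at a q under 0.1. With a minimum of 5 FPKM 1542 genes fell in all. Over the related lists 29 genes rose and 38 fell, where 4.83% of all tested genes rose and 19.3% fell. Under the 5 FPKM limit 17 genes of these lists rose and 32 fell. Rescaling by the median ratio moved the log2 fold change of Twist2 to -0.25 and that of Alx1 to -1.0, and quantile normalization that of Alx1 to -0.95. The members' median log2 ratio became 0.08 on rescaling and stayed within 0.1 of -0.05 under the other alternatives. Set against all genes, it lay between 0.00 and 0.08. The sign held in all 4 alternatives for 6 members and turned in at least 1 for Twist1, Alx4 and Hand2.

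No paired analysis was possible because the table holds 1 value per genotype and none per sample, and for the same reason no fit without a replicate was run. Depth is unknown, and no counting error is given for low levels such as that of Alx1.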

Other observations

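Most of the paired-class homeobox family outside the members was at low levels in these forelimbs, with 19 of 22 other genes below a mean of 1 FPKM. Among those at or above it, Gsc, the goosecoid homeodomain factor, fell to 3.49 FPKM in Prmt5cKO, against 9.22 FPKM in control forelimbs (authors' deposited table: log2 fold change -1.40, q = 7.80e-08). Its log2 fold change was larger in size than that of Alx1, at a mean level of 6.35 FPKM.

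Dnm3os, a non-coding transcript that hosts a microRNA cluster and is known in the mouse as a target of Twist1, was looked at after its values were seen. It fell to 64.3 FPKM in Prmt5cKO, against 92.7 FPKM in control forelimbs (authors' deposited table: log2 fold change -0.53, q = 7.26e-05), while Twist1 itself did not pass.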
